A study of Homo sapiens with 5 samples.

Results

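Histone genes encode the proteins around which nuclear DNA is wound. They were taken here as the array probe sets whose annotated gene symbols all begin with H1-, H2A, H2B, H3-, H3C or H4C. The rule found 79 of 22215 probe sets, which name 66 genes: 72 of them name 1 histone gene and 7 are shared by near-identical copies and were kept as rows of their own. By symbol, 61 are replication-dependent histones (H1-1 to H1-6 and the numbered H2AC, H2BC, H3C and H4C genes) and 18 are variants. H3-3A is named by 4 probe sets that it shares with pseudogenes outside the rule, and these are not members.

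Replication-dependent histone genes sit in clusters, are transcribed in S phase, and give messages that mostly end in a stem-loop in place of a poly(A) tail. Several of them also give polyadenylated transcripts. Variant genes such as H2AZ1 and H3-3B lie apart from the clusters, are expressed throughout the cell cycle and give polyadenylated messages. Standard Affymetrix labelling of RNA starts from a primer on the poly(A) tail, so stem-loop messages are underrepresented by it.

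The cells were LNCaP, an established human prostate cancer line from a lymph node metastasis, grown in RPMI medium with serum. There were 2 arrays of cells given celastrol, a triterpenoid from thunder god vine, at 1.25 µM for 6 h, and 3 arrays of cells given its solvent DMSO for 6 h. The labels call the arrays of a group biological replicates, without saying whether they came from separate days, so a p-value measures the spread between these arrays. With so few arrays, every value below has limited precision. By the labels every array is of this 1 line, and a lower level in bulk RNA cannot tell fewer cells of a cycle stage from less message per cell. Levels are log2(intensity + 1). Changes are celastrol minus the mean of DMSO replicates 1 and 2 on that scale, which understates changes of dim probe sets. The level of 1 probe set cannot be set against that of another, and a mean level of 6 over these 4 arrays is used only to mark dim rows.

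DMSO replicate 3 is shown apart because it does not resemble the others. Its Pearson correlation with them over all probe sets was 0.843 to 0.844, against 0.994 to 0.998 among the other 4 arrays. Of 11 measured luminal prostate markers 10 were at least 2-fold lower on it than on DMSO replicates 1 and 2, and of 14 leukocyte markers 12 were at least 2-fold higher. The median level of the luminal list was 4.43 on DMSO replicate 3, against 9.50 to 9.58 on the other arrays, and that of the leukocyte list 9.77 against 4.35 to 4.45. Total intensity ranged from 4939397 to 5348496.

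The first question was whether histone messages differed between celastrol and its solvent. No histone probe set passed the test, and the changes of most were small, but those with the lowest p were all lower with celastrol. These were 8 probe sets, of the linker histone gene H1-10, of H2AZ1, of H3C10, of the dim H2AC11 and, in 4 cases, of genes for core histone H2B. By limma, with p adjusted by Benjamini-Hochberg over the whole table, 0 of 79 passed (smallest adjusted p = 0.0923), where 2 of 22215 did, a background of 0.009%. The median change was -0.02 for the 79, with values from -0.62 to 0.29, and 0.00 for all probe sets.

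At an unadjusted limma p under 0.05 there were 8 histone probe sets, 8 of them lower and 0 higher. The background for lower values is 7.59% of all probe sets, and 8 of 79 is 10.1%, while in either direction the same 10.1% stands against 13.2%. The count depends on single arrays and moved in either direction when 1 was left out. The share of all probe sets in those fits is not given here. Both celastrol arrays lay below both DMSO arrays for 23 probe sets and above them for 6, with backgrounds of 17.6% and 14.5%. Among the 28 members with a mean level of at least 6, 24 had changes below 0, where 4704 of all 7961 probe sets of that level did. Groups did not overlap for 15 of the 28 with celastrol lower, and for 3 with celastrol higher. These are 53.6% lower and 10.7% higher, where the background at that level is 31.5% lower and 18.4% higher. Of the 28 members 6, or 21.4%, had an unadjusted p under 0.05 and were lower, where the background is 15%. The members were not tested as a set.

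**Figure D1:**
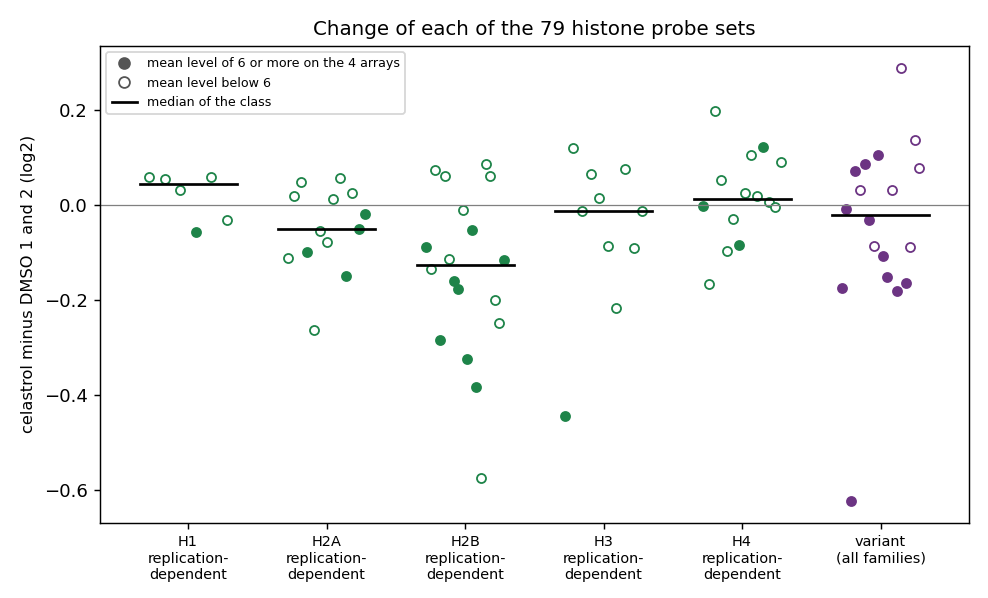
Change of each of the 79 histone probe sets, celastrol minus DMSO replicates 1 and 2 (log2), by family for replication-dependent genes and pooled for variants. Each point is a probe set, filled where its mean level is at least 6, and the black line is the class median, which is lowest for H2B at -0.13.

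Replication-dependent and variant histones had the same median change to the second decimal. It was -0.02 over 61 replication-dependent probe sets and -0.02 over 18 variants, a difference of 0.00. The spread of that difference between replicate arrays was 0.0532 (pooled SD within groups). The classes differ in how much of them can be read. Of the replication-dependent rows 17 had a mean level of at least 6 and 44 lay below it, while 11 of 18 variant rows reached it. With the dim rows left aside the medians were -0.10 for replication-dependent and -0.11 for variant histones, where that of all probe sets of that level was -0.03.

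Both celastrol arrays lay below both DMSO arrays for 18 replication-dependent rows and 5 variant rows. These are 29.5% and 27.8% of the classes, beside the background of 17.6%, but the classes differ in level. Among rows with a level of at least 6, 10 of 17 and 5 of 11 were lower in this way. Those are 58.8% and 45.5%, where the background is 31.5%. Both celastrol arrays lay above both DMSO arrays for 2 and 4 rows, or 3.28% and 22.2%, beside the background of 14.5%. At a level of at least 6 these were 0 of 17 and 3 of 11 rows (27.3%), where the background is 18.4%. This difference between the classes was not tested. At an unadjusted p under 0.05 the lower counts were 6 and 2, or 9.84% and 11.1%, beside the background of 7.59%.

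Among replication-dependent families the H2B genes had the lowest median. H2B pairs with H2A to form dimers that flank the H3 and H4 core of the nucleosome. The median change of 18 H2B probe sets was -0.13, with 14 below 0, and 10 had celastrol below DMSO on every pair of arrays, against 0 the other way. That is 55.6%, beside the background of 17.6%. Of the 8 H2B rows with a mean level of at least 6, 7 were so, or 87.5%, where the background at that level is 31.5%. The H2B median was -0.22 without DMSO replicate 2 and -0.06 without DMSO replicate 1. For H2A the median was -0.05 over 13 probe sets, 4 of them lower without overlap and 1 higher. For H3 it was -0.01 over 10, with 2 lower without overlap. For H4 it was 0.01 over 14, also with 2 lower, among them H4C3 with a change of only -0.003. Counts of groups that do not overlap set no least size of the gap. For linker histone H1 it was 0.04 over 6 probe sets, with 0 lower and 1 higher.

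The promoters of the members that stood lowest are shown because H2B genes share a promoter element, the octamer, that H1, H3 and H4 genes mostly lack. Each is the 250 bases before the gene's start, 5′ to 3′ on the gene's strand, from RefSeq on GRCh38.p14. The octamer ATTTGCAT, the TATA box as TATAAA and CCAAT were searched on either strand and stand in capitals. H2BC8 lies at chr6:26216689-26216938 on the minus strand, H2BC12 at chr6:27146859-27147108 on the minus strand, H2BC5 at chr6:26157871-26158120 on the plus strand, H3C10 at chr6:27809801-27810050 on the plus strand and H1-10 at chr3:129316287-129316536 on the minus strand.
H2BC8: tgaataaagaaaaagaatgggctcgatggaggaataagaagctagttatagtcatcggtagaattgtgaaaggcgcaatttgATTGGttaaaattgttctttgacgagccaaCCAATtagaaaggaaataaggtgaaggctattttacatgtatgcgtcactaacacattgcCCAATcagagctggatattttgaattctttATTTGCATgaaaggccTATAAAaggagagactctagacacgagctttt
H2BC12: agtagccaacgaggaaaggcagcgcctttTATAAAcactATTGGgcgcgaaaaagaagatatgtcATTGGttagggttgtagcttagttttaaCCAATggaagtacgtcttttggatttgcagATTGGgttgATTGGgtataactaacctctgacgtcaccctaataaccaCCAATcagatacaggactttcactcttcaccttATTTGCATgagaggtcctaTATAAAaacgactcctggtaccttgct
H2BC5: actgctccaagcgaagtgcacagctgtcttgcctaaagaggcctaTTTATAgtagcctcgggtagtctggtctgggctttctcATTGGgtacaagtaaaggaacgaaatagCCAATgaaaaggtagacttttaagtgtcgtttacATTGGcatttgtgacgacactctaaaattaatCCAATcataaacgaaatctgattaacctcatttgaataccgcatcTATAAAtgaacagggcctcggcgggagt
H3C10: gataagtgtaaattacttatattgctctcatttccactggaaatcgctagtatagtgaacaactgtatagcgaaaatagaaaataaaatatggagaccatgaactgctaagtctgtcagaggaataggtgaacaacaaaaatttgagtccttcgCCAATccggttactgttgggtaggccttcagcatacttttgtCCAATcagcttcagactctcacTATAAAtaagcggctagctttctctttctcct
H1-10: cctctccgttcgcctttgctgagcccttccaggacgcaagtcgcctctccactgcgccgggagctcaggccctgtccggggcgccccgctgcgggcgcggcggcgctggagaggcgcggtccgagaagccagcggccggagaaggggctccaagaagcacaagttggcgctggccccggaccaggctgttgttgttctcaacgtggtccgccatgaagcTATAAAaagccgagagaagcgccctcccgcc

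In H2BC8 the octamer starts 48 bases before the gene's start and the nearest TATAAA 32 bases before it. In H2BC12 these distances are 46 and 27 bases. The windows of H2BC5, H3C10 and H1-10 hold TATAAA at 28, 32 and 31 bases before the start and no exact octamer. CCAAT occurs 3 times in H2BC8, 6 times in H2BC12, 4 times in H2BC5 and 2 times in H3C10, and 0 times in H1-10, the variant.

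Of 66 member genes 62 matched the promoter table. The octamer was found in 12 of 15 H2B promoters, in 7 of 12 of H2A, in 1 of 7 of H3, and in 0 of 12 of H4 and 0 of 6 of H1. Among 10 variant promoters, that of H3-3B alone held the octamer. Over all 35116 promoters of the table its share was 1.63%. TATAAA was found in 63.5% of replication-dependent promoters, 60% of 10 variant promoters and 10.7% of all. CCAAT was found in 82.7%, 90% and 32% of them in the same order, with 25% for H4. The H2B octamer is known as the site of the transcription factor OCT1. Among H2B rows that name 1 gene, 13 probe sets of 11 genes with the octamer had changes from -0.58 to 0.06 (median -0.16), and 4 probe sets of 3 genes without it from -0.38 to 0.07 (median -0.13). The difference was not tested.

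H2BC12 and H2BC5 encode H2B and are among the replication-dependent genes with polyadenylated transcripts. On 1 probe set H2BC12 stood at 10.00 and 9.89 on the celastrol arrays, against 10.26 and 10.28 on DMSO replicates 1 and 2. The celastrol arrays were lower and apart from DMSO, with a change of -0.32 (SE 0.0503, 95% interval -0.49 to -0.16, limma adjusted p = 0.177). The other probe set of H2BC12 had 10.77 on each celastrol array, against 10.80 and 10.85 with DMSO. Its change was only -0.05 (SE 0.0263, adjusted p = 0.61).

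H2BC5 had 8.06 and 7.97 with celastrol, against 8.34 and 8.45 with DMSO. The groups did not overlap, and the change was -0.38 (SE 0.0626, 95% interval -0.58 to -0.18, adjusted p = 0.185). The other H2BC5 probe set had 7.56 on each celastrol array, against 7.79 and 7.57 with DMSO, so 1 DMSO array lay almost level with celastrol. The change there was -0.12 (SE 0.0933, adjusted p = 0.622).

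H2BC7, H2BC6 and H2BC9, further H2B genes of the large cluster, had changes of the same sign. H2BC7 stood at 6.15 and 6.03 with celastrol, against 6.30 and 6.45 with DMSO, a change of -0.29 (SE 0.0809, adjusted p = 0.341). H2BC6 stood at 7.43 on each celastrol array, against 7.68 and 7.50 with DMSO, a change of -0.16 (SE 0.073, adjusted p = 0.562). For H2BC7 and H2BC6 the groups were apart. H2BC9 stood at 6.00 and 5.98, against 6.34 and 6.00, so it overlapped, and its change was -0.18 (SE 0.141, adjusted p = 0.622). H2BC21, the H2B gene of another cluster, had 9.35 and 9.29 with celastrol, against 9.45 and 9.36 with DMSO, a change of -0.09 (SE 0.0488, adjusted p = 0.622).

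Of these H2B genes 5, all but H2BC21, were read by 1 or more probe sets with the suffix _x_at, which Affymetrix gives to sets whose probes can match several transcripts. H2B genes are near-identical in their coding parts, so these rows are not independent readings of separate genes. The 7 H2B rows with this suffix had a median change of -0.18 and 6 had groups apart with celastrol lower. The 11 H2B rows with another suffix had a median of -0.05 and 4 lower without overlap. The backgrounds of the suffix groups differ, since 6 of the 7 and 2 of the 11 have a level of at least 6, where 31.5% of all probe sets are lower without overlap, against 9.89% below it. Leaving out every member with _x_at or _s_at moved the H2B median to -0.01. Of the H2B rows then left, that of H2BC12 alone (mean level 10.80) is not dim.

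H2BC8 had the smallest p of all members and is named here after its values were seen, since its mean level was below 6. It stood at 4.50 on each celastrol array, against 5.11 and 5.03 with DMSO. The groups lay well apart beside that spread, with a change of -0.58 (SE 0.0383, 95% interval -0.70 to -0.45, adjusted p = 0.0923). Its second probe set had 4.90 and 4.69, against 5.05 and 5.04, a change of -0.25 (SE 0.0874, adjusted p = 0.432). The set it shares with H2BC4 had 4.86 and 4.69 with celastrol, against 4.69 and 4.69 with DMSO, which overlap, and its change was 0.09 (SE 0.0724, adjusted p = 0.622). With quantile normalization of the 4 arrays the first of them passed limma, at an adjusted p of 0.0469. In that setting 1 of 79 histone probe sets passed, beside 197 of all 22215. Over the other settings the change of this H2BC8 set kept its sign, and none of those with all 4 arrays gave a call.

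**Figure D2:**
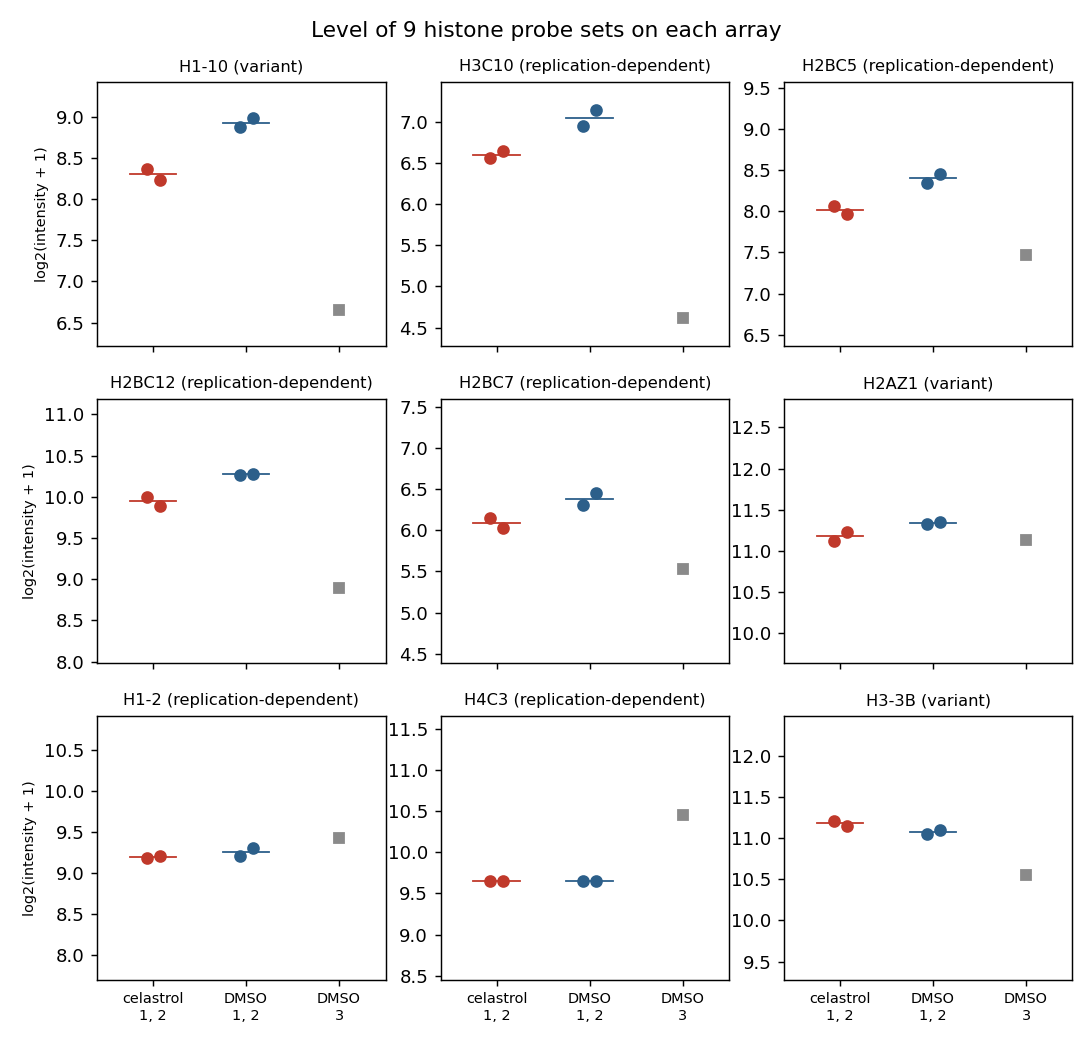
Level of 9 histone probe sets on each array, log2(intensity + 1), each axis spanning the same number of units. Circles are arrays of celastrol (red) and DMSO replicates 1 and 2 (blue) with their mean as a line, and the grey square is DMSO replicate 3. H1-10, H3C10 and the sets shown of H2BC5 and H2BC12 lie lower with celastrol, and H4C3 is level. For H2BC12, H2BC5, H2AZ1 and H3-3B 1 of several probe sets is shown. The sets not shown had changes of -0.05 for H2BC12 and -0.12 for H2BC5. Over its 4 sets H3-3B ranged from -0.09 to 0.11, and the highest is shown.

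H3C10, a cluster gene for histone H3, was the single replication-dependent H3 row with a mean level above 6. It had 6.56 and 6.64 with celastrol, against 6.95 and 7.14 with DMSO, with no overlap. The change was -0.44 (SE 0.0872, 95% interval -0.72 to -0.16, adjusted p = 0.222).

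For the other replication-dependent genes given next the interval of the change includes 0. H4C3, an H4 gene, had 9.65 on each celastrol array and 9.65 on each of DMSO replicates 1 and 2, a change of 0.00 with a 95% interval of -0.06 to 0.06. H1-2, a linker histone gene, had 9.19 and 9.21, against 9.21 and 9.30, a change of -0.06 with an interval of -0.20 to 0.08. H2AC6, an H2A gene, had 8.96 and 8.97, against 8.99 and 9.24. Its celastrol arrays were tight and its DMSO arrays spread, and the change was -0.15 with an interval of -0.48 to 0.18. The H2AC6 groups did not overlap, with celastrol lower. Its change was -0.27 without DMSO replicate 1 and -0.03 without DMSO replicate 2, so its size depends on a single DMSO array. The brighter of the probe sets shared by H2AC18 and H2AC19 had 10.59 and 10.47, against 10.69 and 10.57, which overlap, and its change was -0.10 (SE 0.0718, adjusted p = 0.622).

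The 44 replication-dependent rows with a mean level below 6 had levels from 3.88 to 5.66 and changes from -0.58 to 0.20, with a median of 0.01. Of these 8 were lower without overlap, or 18.2%, where the background below that level is 9.89%, and 2 were higher. They include all 5 H1 rows other than H1-2, 11 of 14 H4 rows and 9 of 10 H3 rows, so for most copies of these genes the arrays gave values near the floor.

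Of the variants, H1-10, a replication-independent linker histone also known as H1X, stood furthest from DMSO. It had 8.37 and 8.23 with celastrol, against 8.87 and 8.98 with DMSO. The groups were apart by far more than the gap within either, with a change of -0.62 (SE 0.0736, 95% interval -0.86 to -0.39, adjusted p = 0.141). Without any 1 of the 4 arrays the change ran from -0.69 to -0.56.

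H2AZ1 and H2AZ2 encode forms of H2A.Z, which replaces H2A at promoters and elsewhere. On 1 probe set H2AZ1 had 11.13 and 11.23 with celastrol, against 11.33 and 11.36 with DMSO. On the other it had 10.68 and 10.48, against 10.81 and 10.71. Celastrol was lower on both, with changes of -0.17 (SE 0.0465, adjusted p = 0.335) and -0.17 (SE 0.0944, adjusted p = 0.622). The 3 probe sets of H2AZ2 had changes of -0.15, -0.11 and -0.01. The last of them, at 10.00 and 10.04 against 10.01 and 10.05, overlapped with a 95% interval of -0.10 to 0.08.

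H3-3B encodes H3.3, the replacement form of H3, and had 3 bright probe sets. On 2 of them celastrol was higher without overlap, at 11.21 and 11.14 against 11.04 and 11.10 (change 0.11, SE 0.0394, adjusted p = 0.46) and at 11.19 and 11.17 against 11.06 and 11.12 (change 0.09, SE 0.0339, adjusted p = 0.492). The third, at 11.95 and 11.91 against 11.98 and 11.94, overlapped and had a change of -0.03. A dim set had -0.09, so the probe sets of H3-3B disagree in sign.

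H2AX, whose product is phosphorylated at DNA breaks, likewise had changes of both signs over 4 probe sets, from -0.18 to 0.29. The set with 0.29 had 5.65 and 5.85 with celastrol, against 5.28 and 5.65 with DMSO, with overlap, a change of 0.29 (SE 0.176, adjusted p = 0.622), and leaving out single arrays gave 0.10 to 0.47. The brightest had 10.90 and 10.95 with celastrol, against 10.89 and 10.83 with DMSO, a change of 0.07 with an interval of -0.05 to 0.19. H2AJ, a variant linked to senescence, stood near the floor at 4.54 and 4.43, against 4.43 and 4.38, a change of 0.08 with overlap. The other dim variants, with levels below 6 throughout, were H2AP at a change of 0.14, the set shared by H2AB1 and H2AB3 at -0.09 and the testis gene H3-4 at 0.03.

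**Figure D3:**
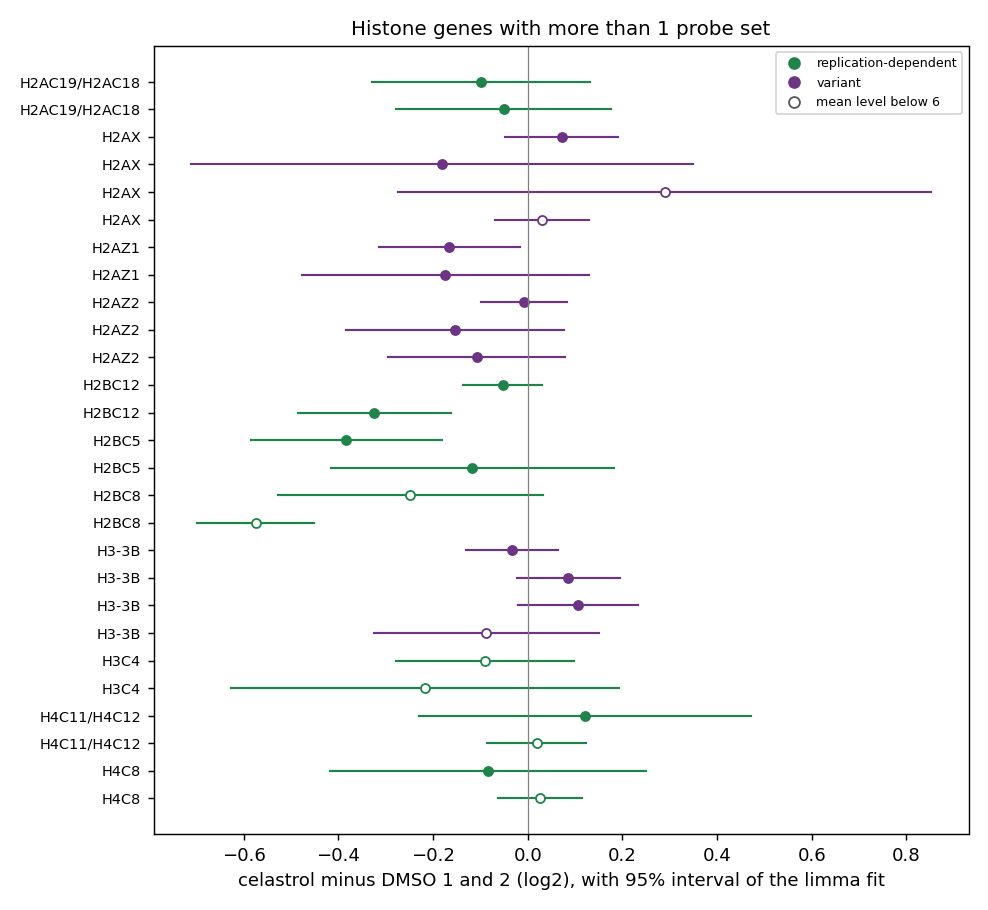
Change with celastrol (log2) of each probe set of the 11 histone genes or gene pairs that have more than 1, with the 95% interval of the limma fit. Open points have a mean level below 6. Probe sets of H2AX, H3-3B and H4C8 lie on either side of 0, and those of H2BC12, H2BC5 and H2BC8 lie on 1 side but differ in size.

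For 11 genes or gene pairs with several probe sets, 3 had changes of opposite sign. The repeatability of single arrays sets the scale for all of this. The median gap between replicates over the members was 0.0505 for celastrol and 0.0621 for DMSO replicates 1 and 2, and that over all probe sets was 0.0604 and 0.063. Replicates of a group had identical values for 19 members in 1 group at least, and 642 probe sets of the table, none of them a histone, had 1 value on all 4 arrays.

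Genes that make, process and place histones were read beside them. The most one-sided counts were those of DNA replication genes, which are expressed with replication-dependent histones in S phase. Of 27 measured, 20 had celastrol below DMSO without overlap and 0 above, with a median change of -0.21, and 12 had an unadjusted p under 0.05, all lower, while 0 passed limma after adjustment. These are 74.1% and 44.4%, where the backgrounds for lower values are 17.6% and 7.59% over all probe sets and 31.5% and 15% at a level of at least 6, which 23 of the 27 reach. MCM7, a helicase subunit, had a change of -0.40 (adjusted p = 0.0853), RFC2, of the clamp loader, -0.29 (adjusted p = 0.0873) and GINS1, a helicase partner, -0.45 (adjusted p = 0.103). On the higher side CDC6, a loader of the helicase, had 0.21, CDC45 0.07 and CDT1 0.02, each at an adjusted p of 0.622 or 0.96. Among the histones most H2B rows, H3C10 and the variant H1-10 were lower too. H4C3 was level, and the medians of replication-dependent H4 and H1 rows were 0.01 and 0.04. Any part of the replication list in the histone values was not tested.

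Of 7 measured genes for transcription of histone genes, 3 were lower without overlap (42.9%, background 17.6%) and 1 higher (14.3%, background 14.5%), with a median of -0.09 and 0 calls by limma. Of the 7 genes 5 have a mean level below 6, where the background for lower values is 9.89%. The 3 lower genes, CCNE1 (mean level 5.26), CCNE2 (5.73) and E2F1 (5.19), are all among these dim rows. CCNE1 and CCNE2 encode cyclin E, which activates the coactivator NPAT. CCNE1 had 5.01 and 4.89 with celastrol, against 5.39 and 5.75 with DMSO, a change of -0.62 (SE 0.155, adjusted p = 0.29), and CCNE2 a change of -0.34 (adjusted p = 0.23). The cell cycle factor E2F1 had -0.36 (adjusted p = 0.425). NPAT itself had -0.09 (adjusted p = 0.622). On the higher side HINFP, an activator of H4 genes, had 0.21, YY1 0.18 and CASP8AP2 0.05, with adjusted p from 0.559 to 0.631.

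Of 15 genes for 3′ end processing and decay of histone messages, 5 were higher without overlap and 4 lower, with a median of 0.03 and 0 calls. These are 33.3% and 26.7%, where the backgrounds at a level of at least 6, which 13 of the 15 reach, are 18.4% higher and 31.5% lower. At an unadjusted limma p under 0.05 there were 5 of the 15 (33.3%), 4 of them higher and 1 lower. The background in either direction is 13.2% of all probe sets and 24.4% at a level of at least 6. ZNF473, a component of the U7 processing complex, had 5.93 and 5.96 with celastrol, against 5.07 and 4.66 with DMSO, a change of 1.08 (SE 0.171, adjusted p = 0.18). With a mean level of 5.41 it is a dim row. SLBP, which binds the stem-loop, had 9.12 and 9.28, against 8.66 and 8.87, a change of 0.43 (SE 0.111, adjusted p = 0.303). Both were apart from DMSO and opposite in sign to most H2B rows. SYMPK, a scaffold of the cleavage complex, is dim as well, with a mean level of 5.11. It had 5.28 and 5.28 with celastrol, against 4.93 and 4.97 with DMSO, a change of 0.33 (adjusted p = 0.0949). On the lower side TUT7, a uridylyltransferase, had -0.23 (adjusted p = 0.223), NCBP2 of the cap-binding complex -0.37 (adjusted p = 0.62) and SNRPB -0.11 (adjusted p = 0.481).

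Of 28 histone chaperones and exchange factors, 9 were lower without overlap and 3 higher, with a median of -0.03 and 0 calls. The lower share, 32.1%, is at the background of 31.5% for a level of at least 6, which 26 of the 28 reach. The higher share is 10.7%, where the background at that level is 18.4%. The paralogs ASF1B and ASF1A, which carry H3 and H4, had opposite signs. ASF1B, the form linked to proliferation, had 5.78 and 5.73 with celastrol, against 6.26 and 6.33 with DMSO, a change of -0.54 (SE 0.0403, adjusted p = 0.0981). ASF1A had 8.22 and 8.25, against 8.06 and 8.07, a change of 0.17 (SE 0.0208, adjusted p = 0.144). ANP32E, which removes H2A.Z, had -0.13 and VPS72, which helps deposit it, -0.16 (adjusted p = 0.194 and 0.299). The H3.3 chaperone DAXX had 0.19 and RUVBL1, a subunit of exchange complexes, 0.11, each at an adjusted p of 0.622. Of variants named outside the rule, MACROH2A1 had -0.08, MACROH2A2 -0.07 and CENPA, the centromeric H3, 0.00. MACROH2A1 alone was lower without overlap, 1 of 3 or 33.3%. The background is 17.6% of all probe sets and 31.5% at a level of at least 6.

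On the array labelled DMSO replicate 3 the histone profile was of another kind. The H2A and H2B rows were low there and several H1 and H4 rows were high. At least 2-fold below the mean of DMSO replicates 1 and 2 were 12 of 79 histone probe sets, where the background is 10.1% of all, and 1 was at least 2-fold above, where it is 7.52%. All 12 are among the 28 rows with a mean level of at least 6, chosen on the other 4 arrays, for which the background is 25.5%. This is a single array, so no test was made. Of the 27 DNA replication genes 16 were at least 2-fold higher on it and 0 at least 2-fold lower, and their part in its histone profile was not tested.

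H2BC21 stood furthest below, at 5.87 on DMSO replicate 3 against a mean of 9.41 on the other DMSO arrays. H4C8 on its brighter set had 3.86 against 6.61, the H2AC18 and H2AC19 set 8.17 against 10.63, H3C10 4.61 against 7.04, H1-10 6.65 against 8.93 and H2AC6 6.96 against 9.12. In the other direction H4C3 had 10.46 against 9.65, H1-3 5.50 against 4.42 and H1-4 5.14 against 4.26. The probe sets of H2AZ1 differed by -0.11 and -0.20, close to the level of the others, while those of H2AZ2 ranged from -1.74 to 0.20. By family the median difference was -0.80 for H2B and -0.71 for H2A, against 0.14 for H1, 0.05 for H3, 0.11 for H4 and -0.17 for variants.

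**Figure D4:**
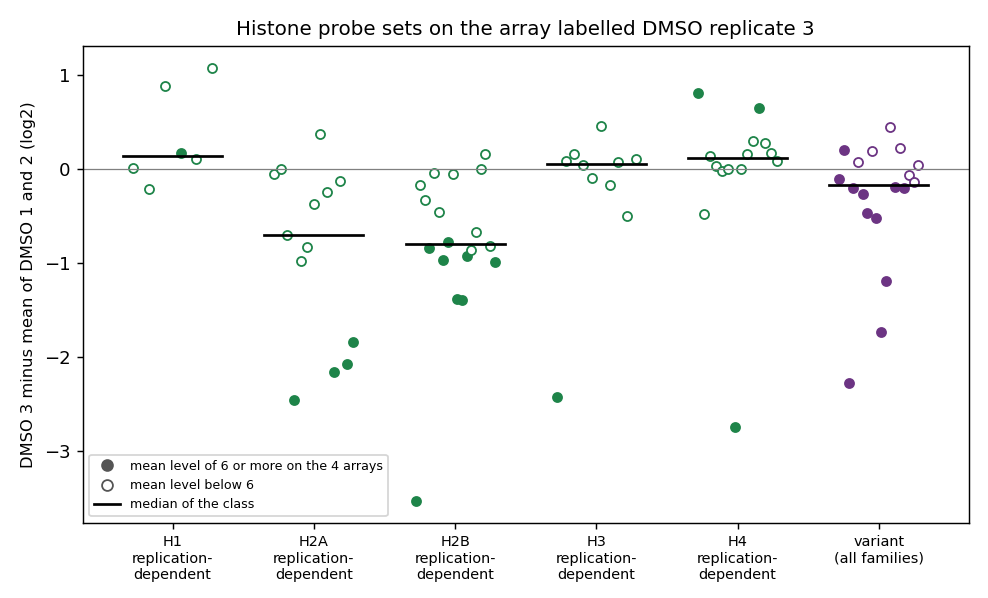
Difference of DMSO replicate 3 from the mean of DMSO replicates 1 and 2 (log2) for each histone probe set, by family for replication-dependent genes and pooled for variants. Filled points have a mean level of at least 6 on the other 4 arrays. H2A and H2B medians lie below 0 and H2BC21 lies lowest, at -3.54.

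With DMSO replicate 3 counted as a DMSO array, the median change of replication-dependent histones was 0.05, that of variants 0.10 and that of H2B 0.07. The sign of H2BC12, H2BC6, H3C10 and H1-10 turned, and 0 members had an unadjusted p under 0.05 and were lower. H2BC5 stood at -0.07 in that fit on its brighter probe set and H2BC7 at 0.00.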

How the data were processed

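Per the labels' protocols, RNA was taken with Trizol and made into biotinylated cRNA by Affymetrix's procedure. The deposited values are linear intensities, 1 for each probe set on each array. The submitters' processing notes name RMA, whose version is not given in the sources used here. RMA values can be identical between arrays, at 17.1% to 19.3% of probe sets in pairs of the 4 arrays. Groups follow the titles, since the description of the DMSO samples speaks of celastrol.

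Values were taken as log2(value + 1) and not normalized further. Celastrol was compared with DMSO replicates 1 and 2 on all 22215 probe sets with no filter by limma 3.58.1 in R 4.3.3 (lmFit, eBayes), two-sided, with Benjamini-Hochberg adjustment and a threshold of 0.05. Symbols came from the platform annotation, in which 19724 probe sets name 1 gene. Promoters were matched by gene ID. The fit was tested on simulated data. An exact permutation test of 2 against 2 arrays cannot go below p = 0.333, so none is given.

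Named members are, in each class, the 6 with the highest mean level and the 6 with the largest change among those of level 6 or more, those past the threshold, those apart with a change of at least 0.3 at that level, and 12 set genes. From each of 5 further lists up to 3 genes a direction with the smallest p are named. Members, classes and lists were chosen with earlier results of these data known. Of the 12 set genes, 1 is not reported here.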

Additional observations from a re-analysis of the deposited data

How the results depend on the processing

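Over 19 other settings the count of histone probe sets past the threshold stayed at 0, except 1 with quantile normalization (H2BC8, named above). All probe sets called, 2 as reported, numbered 0 on all 5 arrays, 121 and 130 with the dimmest 40% by the 4 and by all 5 arrays left out, 197 with quantile normalization, 139 with median centring, 43 with log2(value + 16), 1 with an eBayes trend and 0 with any 1 array left out. The cause of these moves was not tested. With the replicate number as a block 0 probe sets and 0 histones were called. Within-group differences of the same numbers correlated at r = -0.02 over probe sets. No pairing by number was seen, but this correlation cannot exclude a shared culture or day, which the labels do not state. Histones lower at an unadjusted p under 0.05, 8 as reported, numbered 0 on all 5 arrays, 3 without _x_at and _s_at members, which leaves fewer rows, and 5 to 13 with 1 array left out. The median of replication-dependent histones moved to 0.0486 on all 5 arrays, -0.0837 and -0.0895 under the dim filters and -0.10 at level 6 or more, and ran from -0.03 to -0.01 with 1 array left out. That of variants moved to 0.10 and -0.11 on all 5 arrays and at level 6 or more, and ran from -0.02 to 0.01. Their difference moved to 0.0837 without _x_at and _s_at members and 0.0569 with the class border moved, and ran from -0.03 to 0.01. On all 5 arrays these changes turned sign: H1-10 to 0.13, H2AC18 and H2AC19 to 0.72, H2AC6 to 0.57, a dim H2AX set to -0.12, H2AZ2 to 0.47 and 0.25, H2BC12 to 0.14 and 0.41, H2BC21 to 1.09, H2BC5 to 0.22 on its dimmer set, H2BC6 to 0.16, H2BC9 to 0.0817, H3-3B to 0.13 on its brightest set and H3C10 to 0.37. Near 0, the brightest H2AZ2 set turned to 0.0126 with median centring and H4C3 to 0.0176 with that and 0.0152 with quantile normalization. With 1 array left out that H2AZ2 set ran from -0.0276 to 0.0111 and an H2AX set from -0.38 to 0.0178. Of 505 values of 29 named probe sets under other settings, 484 kept sign and side, 20 turned sign and 1 gained a call. Many of these could not turn, so the count is no measure of robustness. Settings that only select among the members reuse the fit as reported, so neither their changes nor their calls could move. The dim filters, the eBayes settings and the replicate block alter p but not the change. Depth is not given by arrays, and dim rows near the floor limit what can be read in 44 replication-dependent rows.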
